A study of Mus musculus with 24 samples.

Results

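The myogenic factors are the transcription factors that set and keep the identity of skeletal muscle cells. Of the 18669 genes counted, 8 such factors were taken by name: the 4 myogenic regulatory factors Myod1, Myog, Myf5 and Myf6, the satellite cell factor Pax7, and the MEF2 factors Mef2a, Mef2c and Mef2d. All 8 passed the filter on low counts (at least 2 counts in at least 10 of 24 libraries) that left 13754 genes for testing.

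RNA of quadriceps femoris muscle was sequenced from 24 mice on a CBA x C57BL/6 F1 background, 2 mice in each of 12 groups, 4 h after treatment. The 3 genotypes were wild type, R6/2 (mice with a transgene of exon 1 of mutant HTT, a fast model of Huntington's disease, in which the human HTT promoter drives the transgene in many tissues) and Hsf1-/- (mice homozygous for a knockout of the heat shock transcription factor HSF1 in every cell). In the heat experiment, mice under isoflurane were warmed to a body core of 41.5 °C, kept there for 15 min (HS), or kept at 36.9 °C for 21 min (control). In the second experiment, 12 mg/kg of the HSP90 inhibitor NVP-HSP990 (HSP990), or vehicle, was given by oral gavage. The labels name saline alone as the vehicle, while HSP990 was suspended in methyl cellulose and saline. Wild type and R6/2 mice were 12 weeks old, Hsf1-/- mice 10 weeks in the heat experiment and 8 weeks in the HSP990 experiment. With 2 mice in a group, the p-values rest on the spread pooled over all 12 groups.

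MyoD and Myf5 commit cells to the muscle lineage and myogenin drives their terminal differentiation, while Myf6 (MRF4) is the member of this bHLH family that mature fibres express most. These proteins pair with E proteins and bind the E-box, a short motif in the regulatory DNA of muscle genes, often together with MEF2 proteins, which are MADS-box factors that also answer to calcium and to nerve activity. PAX7 marks satellite cells, the quiescent stem cells that lie on the fibre. In innervated adult muscle Myod1 and Myog are kept low, and Myog in particular is known to increase when a fibre loses its nerve.

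The total counts ranged from 22450177 to 46599238 per library. Hsf1 was at 21.1 to 29.0 CPM (counts scaled to a common library size with TMM factors) in the 8 Hsf1-/- mice and at 45.3 to 68.6 CPM in the other 16 mice, lower in every knockout library but not at 0. The 20 most abundant genes took 13.9 to 21.9% of counts in R6/2 mice, against 32.5 to 39.8% elsewhere. Reads on 4 Y-linked genes numbered 0 to 4 in the wild type and R6/2 mice of the heat experiment and at least 3916 in all Hsf1-/- mice and in all mice of the HSP990 experiment. Sex therefore cannot be told apart from genotype where Hsf1-/- and wild type mice of the heat experiment are compared, nor from the experiment in wild type and R6/2 mice, while R6/2 and wild type mice of the same experiment are alike in these reads.

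The loci of the 8 genes are given in mm9, the build the reads were mapped to. Myod1 (gene 17927) lies on chr7:53631844-53634462 on the plus strand and Myog (17928) on chr1:136186581-136189124, also plus. Myf5 (17877, chr10:106919964-106923190) and Myf6 (17878, chr10:106929916-106931785) are neighbours on the minus strand, with 6725 bases between them. Pax7 (18509) covers chr4:139292977-139389445, minus strand. Mef2a (17258, chr7:74376049-74517744, minus), Mef2c (17260, chr13:83643033-83806684, plus) and Mef2d (17261, chr3:87946294-87976008, plus) are the longer MEF2 loci, and Mef2d overlaps 1700113A16Rik on the other strand. No near-identical copy of any of the 8 was found elsewhere in the genome.

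Myog is the only bHLH member among the called genes described below, and its proximal promoter is a well-studied target of these same factors, so its sequence is shown. The 250 bases before the RefSeq start were found once, as an exact match, at chr1:136186331-136186580 of mm9 (plus strand), with the E-boxes (CANNTG) in capitals.
Myog: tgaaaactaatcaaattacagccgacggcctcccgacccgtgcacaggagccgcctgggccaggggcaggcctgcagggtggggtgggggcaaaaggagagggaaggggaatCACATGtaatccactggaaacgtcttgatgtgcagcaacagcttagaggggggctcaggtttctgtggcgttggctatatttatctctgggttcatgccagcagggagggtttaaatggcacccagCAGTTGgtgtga
The E-boxes begin 138 and 12 bases before the start. Of 32851 RefSeq promoters of the same length, 66.2% hold a CANNTG, so that its presence is common. RefSeq (GRCm38.p6) gave a promoter for 6 of the 8 genes. CANNTG was also found at 234 and 100 bases before the start of the first of 3 Mef2c promoters and at 245 bases before the third, and in no other window of the members. The form CAGCTG (13% of all promoters), the heat shock element core GAANNTTC (6.69%) and a strict form of the MEF2 consensus (2.92%) were not matched in any member's window. That form misses the A/T-rich stretch ctatatttat of the printed Myog sequence, 64 bases before the start, which is known as the MEF2 site of this promoter, so that no match says only that these letters are not in the window. The search covered both strands, and every CAGCTG is also a CANNTG.

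Myf6 was the most abundant of the 8 genes per length of transcript. Over the 24 mice it stood at 113 ± 24.9 CPM per kb of exon (mean ± SD), followed by Mef2c at 46.99 ± 7.04, Mef2d at 37.0 ± 3.59, Myod1 at 21.8 ± 7.88, Mef2a at 19.0 ± 2.41, Myog at 9.95 ± 4.69, Myf5 at 1.29 ± 0.426 and Pax7 at 0.770 ± 0.300 CPM per kb. Myf6 was above Mef2c in 24 of 24 mice, and Mef2c was above Mef2d in 21. Myod1 and Mef2a did not separate, with Myod1 higher in 13 of the 24 mice. Pax7 was the lowest in 23 mice. In raw counts Pax7 had 39 to 373 and Myf5 36 to 239 reads per library, so counting error weighs more on these genes than on Mef2c, which had 6333 to 16628.

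**Figure D1:**
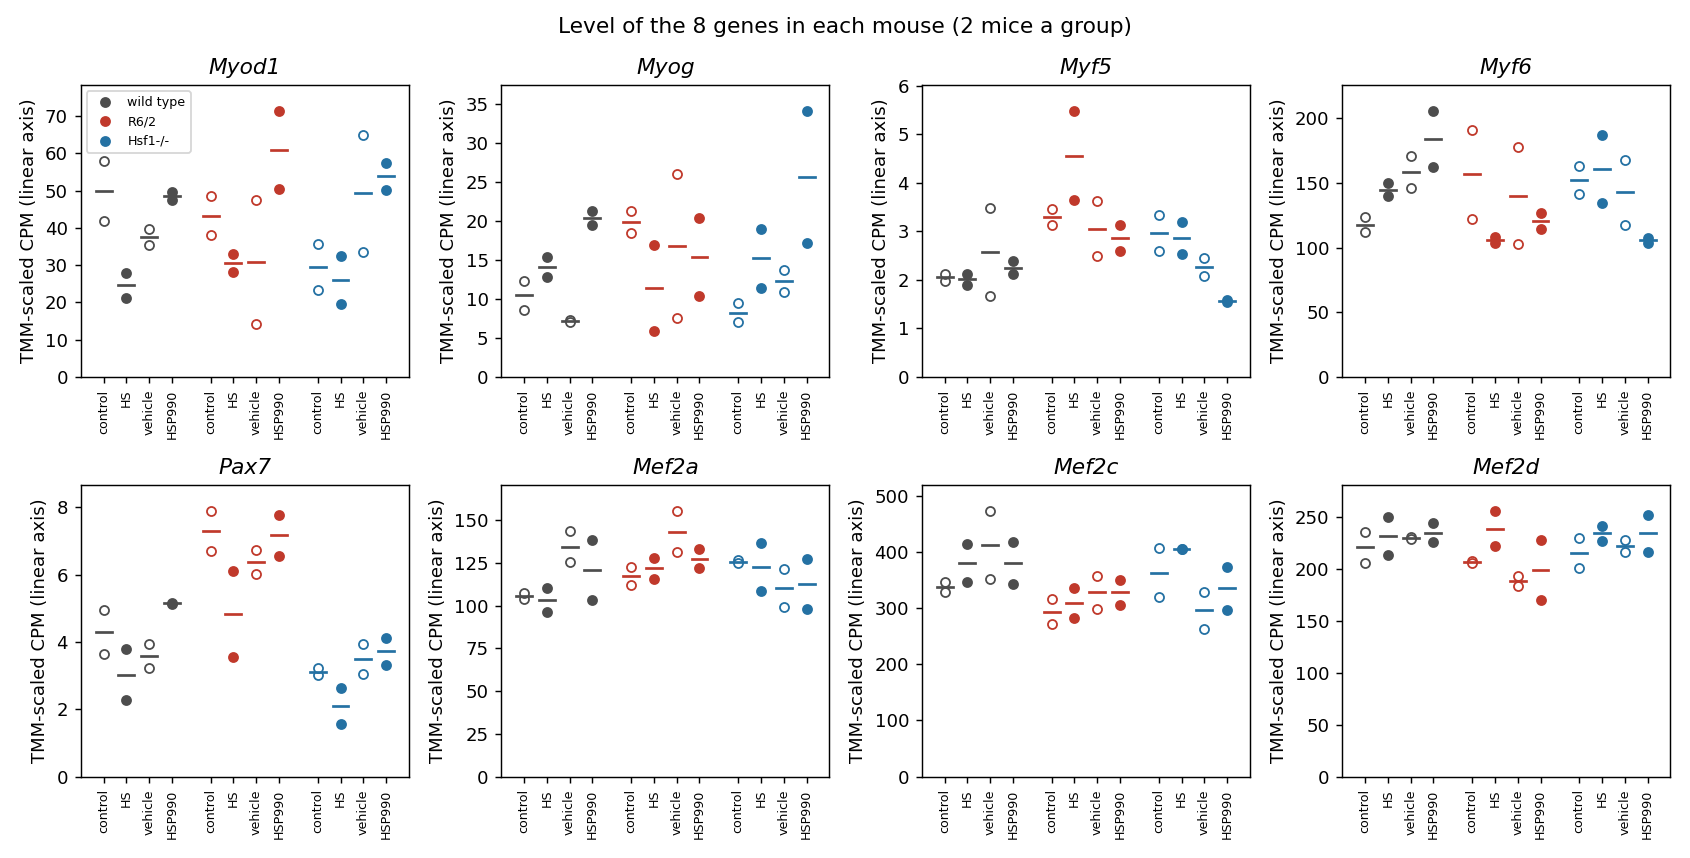
TMM-scaled CPM (linear axes from 0) of the 8 genes in each of 24 mice, by genotype (grey wild type, red R6/2, blue Hsf1-/-) and treatment; open points are control or vehicle mice, filled points HS or HSP990 mice, and bars are means of 2 mice. Pax7 is at 6.01 to 7.88 CPM in the 4 untreated R6/2 mice and at 3.22 to 4.95 CPM in the 4 untreated wild type mice, while the MEF2 factors change little between groups.

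Between the groups the levels of the MEF2 factors differed least. The highest group mean was 1.27 times the lowest for Mef2d, 1.38 times for Mef2a and 1.41 times for Mef2c. Myf6 spanned 1.74 times, Myod1 2.48 times, Myf5 2.92 times, Pax7 3.48 times and Myog 3.58 times. When the 12 groups were put in order of their means, few neighbours lay apart beyond the range of their 2 mice. The number apart was 0 of 11 neighbouring pairs for Myod1, Myog, Mef2a and Mef2c. It was 1 of 11 for Myf6, Pax7 and Mef2d and 2 of 11 for Myf5. Ordering by mean puts groups of similar level side by side, so that neighbours can overlap often for any gene. No such count was made over all genes, so these counts are a description only and do not set the myogenic factors apart. The order of Pax7 had R6/2 control (7.30 CPM), R6/2 HSP990 and R6/2 vehicle (6.38 CPM) at its head. The break came between R6/2 vehicle and the next group, wild type HSP990 (5.15 CPM). R6/2 HS ranked only 5th (4.84 CPM), and its higher mouse (6.11 CPM) lay above the lower R6/2 vehicle mouse (6.01 CPM). The lowest group of Pax7 was Hsf1-/- HS at 2.10 CPM.

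Pax7 and Myog had higher average levels in untreated R6/2 than in untreated wild type mice, with the control and vehicle groups of each genotype averaged. The Myog call was less stable than that of Pax7 over the alternative settings. Of the 8 genes 2 were called, both higher, at a Benjamini-Hochberg adjusted p below 0.05 in edgeR's quasi-likelihood test, and DESeq2 also called 2. In this comparison 30.5% of all genes tested were called (2075 higher and 2117 lower), so that 2 of 8, or 25.0%, was not above the background.

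Pax7 was at 4.95 and 3.66 CPM in wild type control, 3.93 and 3.22 in wild type vehicle, 7.88 and 6.71 in R6/2 control and 6.75 and 6.01 CPM in R6/2 vehicle mice. All 4 untreated R6/2 mice were above all 4 untreated wild type mice. The means were 6.84 ± 0.777 and 3.94 ± 0.734 CPM (SD, n = 4), a log2 fold change of 0.80 (standard error 0.213, 95% interval 0.35 to 1.25, edgeR adjusted p = 0.00916). An exact two-sided permutation test of 4 against 4 mice gave p = 0.0286, the smallest it can give, and within the 2 experiments p = 0.0556, again the smallest possible. The log2 fold change was 0.76 between the control groups (edgeR adjusted p = 0.108) and 0.84 between the vehicle groups (edgeR adjusted p = 0.0633), so neither experiment passed the threshold alone, while leaving out any of the 8 mice kept the call (edgeR adjusted p = 0.013 to 0.048). In RNA of whole muscle, more satellite cells, more Pax7 RNA per cell and a smaller share of RNA from fibres cannot be told apart.

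Myog was at 8.63 and 12.3 CPM in wild type control, 7.28 and 7.02 in wild type vehicle, 21.2 and 18.4 in R6/2 control and 26.0 and 7.51 CPM in R6/2 vehicle mice. Of the 4 R6/2 mice 3 were above every wild type mouse and the other, R6/2 vehicle replicate 2, lay within the wild type range. The means were 18.3 ± 7.85 and 8.81 ± 2.44 CPM (SD, n = 4), a log2 fold change of 1.08 (standard error 0.370, 95% interval 0.29 to 1.86, edgeR adjusted p = 0.0362). It was 0.92 between the control groups (edgeR adjusted p = 0.278) and 1.23 between the vehicle groups (edgeR adjusted p = 0.116). Of 10 settings other than leaving out a mouse, the call held in 7, against 8 for Pax7. An exact permutation test of 4 against 4 mice gave p = 0.0857, and within the 2 experiments p = 0.0556, the smallest it can give, since both R6/2 mice were above both wild type mice in each experiment. The call held without R6/2 vehicle replicate 2 (edgeR adjusted p = 0.00599) and was lost when any other of the 8 mice was left out (0.051 to 0.31). Without R6/2 vehicle replicate 1, the mouse at 26.0 CPM, the log2 fold change was 0.49.

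The other 6 genes did not pass. Myf5, at 2.31 ± 0.799 CPM in untreated wild type and 3.18 ± 0.503 CPM in untreated R6/2 mice (SD, n = 4), had a log2 fold change of 0.47 (95% interval -0.0048 to 0.94, edgeR adjusted p = 0.127). It was called without wild type vehicle replicate 1, the mouse at 3.48 CPM (log2 fold change 0.78, edgeR adjusted p = 0.0182). Mef2c and Mef2d had log2 fold changes of -0.27 and -0.19, with 95% intervals of -0.54 to 0.0023 and -0.40 to 0.01. Myf6 (0.12, interval -0.25 to 0.48) and Mef2a (0.12, interval -0.12 to 0.37) were bounded within 0.5 of no difference on the log2 scale. Myod1, at -0.24, had an interval of -0.87 to 0.38. It was called lower without R6/2 vehicle replicate 1 (log2 fold change -0.81, edgeR adjusted p = 0.0254), when replicate 2, at 14.1 CPM, was the one mouse left in that group.

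These signs rest on TMM scaling. With library size alone the median over all genes moved from 0.05 to 0.66 on the log2 scale, and 7 of the 8 genes were called. Of these 7, Mef2c (0.34) and Mef2d (0.41) changed sign, though both stayed below that median. The TMM value of Myod1 (-0.24) is smaller in size than this move of the median. Its negative sign therefore rests on the scaling as well.

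**Figure D2:**
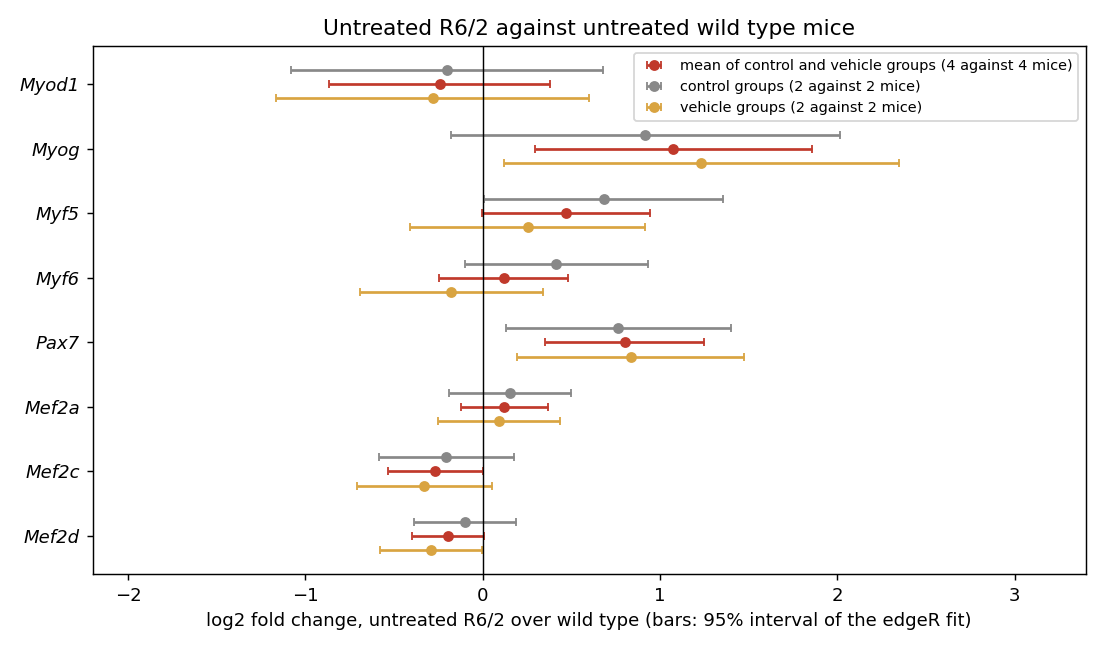
Log2 fold change of each gene in untreated R6/2 over untreated wild type mice, with 95% intervals of the edgeR fit: red for the mean of control and vehicle groups (4 against 4 mice), grey for control groups and yellow for vehicle groups (2 against 2 mice each). The red intervals of Pax7 (0.35 to 1.25) and Myog (0.29 to 1.86) lie above 0.

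The genes that work with the myogenic factors were read in the same comparison, from lists of named genes. Of 20 satellite cell genes other than Pax7, 5 rose and 1 fell in R6/2 mice (30.0%, against 30.5% of all genes), and 16 of the 20 had a positive log2 fold change, with a median of 0.30 against 0.05 for all genes. Sdc4 (syndecan-4) rose by 1.34 on the log2 scale (SE 0.175), Pax3, the relative of Pax7, by 1.31 (SE 0.363) and the receptor gene Fgfr4 by 0.77 (SE 0.245). Their adjusted p-values in edgeR were 3.3e-05, 0.012 and 0.025. The gene that fell was Hes1 (-0.62, SE 0.198, edgeR adjusted p = 0.024). The satellite cell markers Cdh15 (0.18), Vcam1 (0.27) and Itga7 (0.34) were not called. Hes1 and these markers were named after their values were seen. The summed level of the 20 genes was 1027 to 1209 CPM in untreated R6/2 and 806 to 927 CPM in untreated wild type mice. Dag1, chosen after its values were seen, made up most of it, at 678 CPM in R6/2 and 507 CPM in wild type mice. The sums therefore mostly follow this 1 gene and do not measure the list as a whole.

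Of 20 partners and inhibitors of the bHLH factors, 5 rose and 3 fell (40%). The repressor genes Bhlhe41 and Bhlhe40 fell by 1.80 and 1.33 on the log2 scale, and Msc, which codes for the inhibitor musculin (MyoR), rose by 0.87 (SE 0.224, edgeR adjusted p = 0.0075). The E proteins Tcf4 and Tcf12, chosen after their values were seen, rose by 0.39 and 0.42. Of 20 regulators of MEF2 that were tested, 4 rose and 3 fell (35%): the kinase gene Sik1 rose by 1.23, and the calcium/calmodulin kinase genes Camk2a and Camk2b fell by 1.13 and 0.76. Of 17 homeobox and other regulators tested, 3 rose and 3 fell (35.3%), among them Six2 (0.82), Meox2 (-0.87) and Meox1 (-0.80).

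Of 29 known target genes of the bHLH and MEF2 factors, 5 rose and 9 fell (48.3%), with a median log2 fold change of -0.52. The genes that rose were Cdkn1a (2.61), which codes for the cell cycle inhibitor p21, Runx1 (2.39), the acetylcholine receptor subunits Chrna1 (1.87) and Chrnb1 (0.94), and the receptor kinase of the neuromuscular junction, Musk (1.37). All but Cdkn1a were named after their values were seen. Chrna1 went from 24.1 ± 2.50 to 89.2 ± 19.2 CPM (SD, n = 4; edgeR adjusted p = 3.8e-07). The genes that fell code for proteins of the contractile apparatus and of energy supply, led by Acta1 (-2.61) and Actc1 (-2.50). The fetal receptor subunit Chrng, named after its values were seen, was near the limit of detection at 0.282 ± 0.337 CPM in wild type and 0.238 ± 0.297 CPM in R6/2 mice (SD, n = 4).

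The markers of other cells moved in part with these differences. All 10 fibre markers were called lower in R6/2 mice (Acta1, Pvalb by 2.32 and Myh4 by 2.11 on the log2 scale), where 30.5% of all genes were called. Acta1, Ckm and Mylpf are also among the target genes above, so these 2 lists are not independent. Ckm and Mylpf are named only because they are shared. The summed level of the fibre markers was 45370 to 77600 CPM in untreated R6/2 and 215500 to 249700 CPM in untreated wild type mice. The endothelial sums overlapped (397.8 to 440.8 and 418 to 499 CPM), as did those of fibroblast (814 to 1117 and 825 to 1250), macrophage (73.3 to 105 and 54.3 to 92.1), smooth muscle (270 to 309 and 269 to 340) and Schwann cell markers (119 to 160 and 124 to 176). Adipocyte sums were 217 to 359 CPM in R6/2 and 341 to 1511 CPM in wild type mice, which overlapped at the edge. Of these markers, 0 of 8 endothelial, 1 of 8 fibroblast (higher), 2 of 8 macrophage (higher), 1 of 7 smooth muscle (lower), 0 of 5 Schwann cell and 3 of 7 adipocyte genes (lower) were called. None was at 0 in any group. The part of the cell makeup in the Pax7 and Myog differences was not tested.

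**Figure D3:**
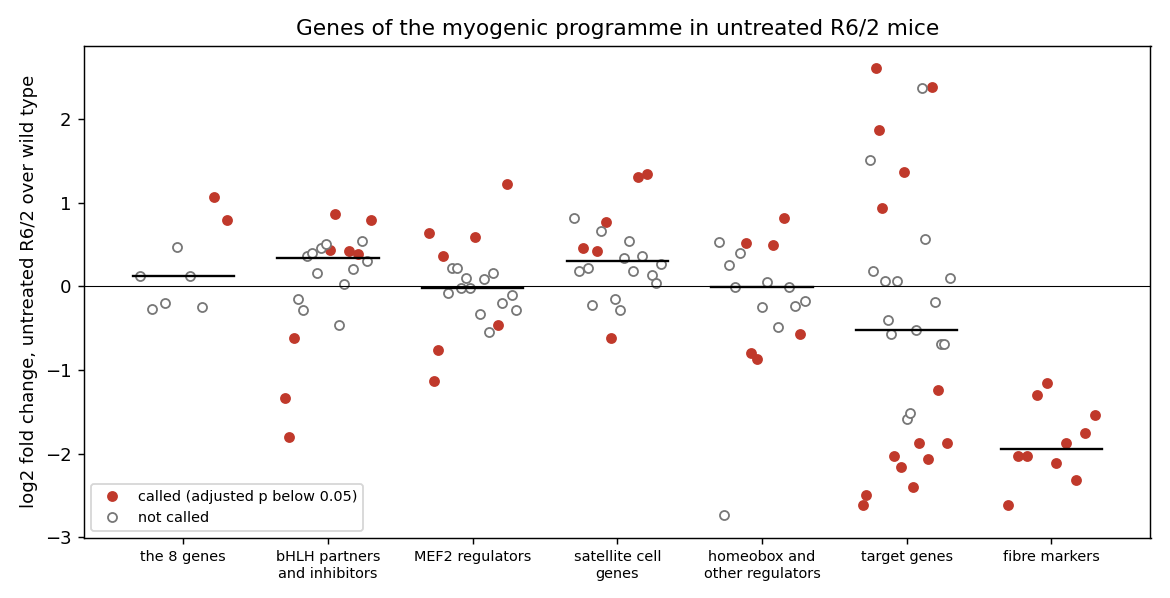
Log2 fold change in untreated R6/2 over untreated wild type mice of every tested gene of 7 lists, filled red where called by edgeR (adjusted p below 0.05) and open where not, with the median of each list as a bar. The median is 0.12 for the 8 myogenic factors, of which 5 have a positive value, against 0.05 for all genes tested. It is 0.30 for the satellite cell genes, -0.52 for the target genes and -1.95 for the fibre markers. The target genes and fibre markers share Acta1, Ckm and Mylpf.

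In untreated Hsf1-/- mice none of the 8 genes was called against wild type, with 0 at an unadjusted p below 0.05 and 0 called by DESeq2, where 0.974% of all genes were called by edgeR. The log2 fold changes lay between -0.24 (Pax7, 95% interval -0.71 to 0.22) and 0.22 (Myog, interval -0.58 to 1.01). Mef2d was the most narrowly bounded, at -0.04 (interval -0.25 to 0.16). The 2 experiments differed in sign for some genes: Myod1 had -0.75 between the control groups and 0.39 between the vehicle groups, and Myog -0.35 and 0.78, with every interval including 0. Mef2c had 0.10 between the control groups and -0.48 between the vehicle groups (interval -0.86 to -0.09, unadjusted p = 0.0175, edgeR adjusted p = 0.437). Age and, in the heat experiment, sex differ between these genotypes as well. No member was called between the 2 untreated groups of a genotype either: vehicle against control gave 0 called genes of 8 in wild type (0.24% of all genes called), R6/2 (0.0654%) and Hsf1-/- mice (0%), and 0 by DESeq2. The lowest unadjusted p-value was that of Mef2a in wild type mice, which was at 104 and 107 CPM in control and 143 and 125 CPM in vehicle mice (log2 fold change 0.35, edgeR adjusted p = 0.352).

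After HS no member was called in any genotype by edgeR or DESeq2. The share of all genes called was 2.06% in wild type, 0.0436% in R6/2 and 0.00727% in Hsf1-/- mice, so in the last 2 the test called few genes of any kind. At an unadjusted p below 0.05 there were 1, 1 and 0 members. Groups of 2 mice often lie apart without any effect. Where treated and untreated mice are said below not to overlap, this is a description only. The share of all genes without overlap was not computed.

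Myod1 had the largest difference in wild type mice. It was at 41.7 and 57.9 CPM in control and 21.1 and 28.0 CPM in HS mice, so the groups did not overlap. The log2 fold change was -1.02 (95% interval -1.92 to -0.12, edgeR adjusted p = 0.325), and over the alternative settings it ran from -1.24 to -0.76. It was called only when the 4 libraries were fitted alone (edgeR adjusted p = 0.0246), while with 1 mouse left out its edgeR adjusted p was 0.49 to 0.80. In R6/2 mice Myod1 was at 38.1 and 48.5 CPM in control and 32.9 and 28.3 CPM in HS mice, and in Hsf1-/- mice at 35.8 and 23.4 and at 32.5 and 19.5 CPM, where the groups overlapped.

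Pax7 was lower on average after HS in each genotype. The HS mice were at 2.27 and 3.79 CPM (wild type), 6.11 and 3.56 CPM (R6/2) and 2.65 and 1.55 CPM (Hsf1-/-), where the Hsf1-/- controls were at 3.03 and 3.21 CPM. HS mice lay below both controls of their genotype in R6/2 and Hsf1-/- mice, and the groups overlapped in wild type mice. The log2 fold changes were -0.51, -0.59 and -0.57, with none called. The control mice are the same as in the genotype comparison above. Averaged over the 3 genotypes, a comparison added after the data had been seen, Pax7 had a log2 fold change of -0.56 (95% interval -0.93 to -0.18, unadjusted p = 0.00639 and edgeR adjusted p = 0.0814). In this average 0 members were called, 2 had an unadjusted p below 0.05, and 6.14% of all genes were called. DESeq2 called Pax7 (DESeq2 adjusted p = 0.0378), as did edgeR without 3 of the 12 mice in turn, and its edgeR adjusted p over mice left out was 0.029 to 0.23. Myod1 had an average of -0.57 (95% interval -1.08 to -0.06, edgeR adjusted p = 0.212). In the same average 3 of 8 endothelial markers were called (Kdr at -1.06, Tek at -0.58 and Pecam1 at 0.48 on the log2 scale) and 1 of 8 macrophage markers (Itgam at 0.78). The summed endothelial level overlapped, at 423 to 635 CPM in the 6 HS mice and 398 to 628 CPM in the 6 control mice, and the part of these markers in the Pax7 and Myod1 values was not tested.

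Myf6, Myog and Myf5 had no common direction after HS. Myf6 was at 112 and 124 CPM in wild type control and 150 and 140 CPM in wild type HS mice, higher in both, and at 191 and 122 CPM in R6/2 control and 108 and 104 CPM in R6/2 HS mice, lower in both. Its log2 fold changes were 0.30 and -0.57, and the difference of these responses, -0.87 (95% interval -1.59 to -0.14), was not called (edgeR adjusted p = 0.989). Myog had log2 fold changes of 0.43 in wild type, -0.80 in R6/2 and 0.88 in Hsf1-/- mice, with every interval including 0. Mef2a, Mef2c and Mef2d had log2 fold changes between -0.04 and 0.21 in the 3 genotypes. Of the tests of a different HS response, 0 of 8 members were called for R6/2 against wild type mice (1 at an unadjusted p below 0.05; 0.0727% of all genes called) and 0 of 8 for Hsf1-/- against wild type mice (0 unadjusted; 0.16% of all genes), and DESeq2 called 0 in both.

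**Figure D4:**
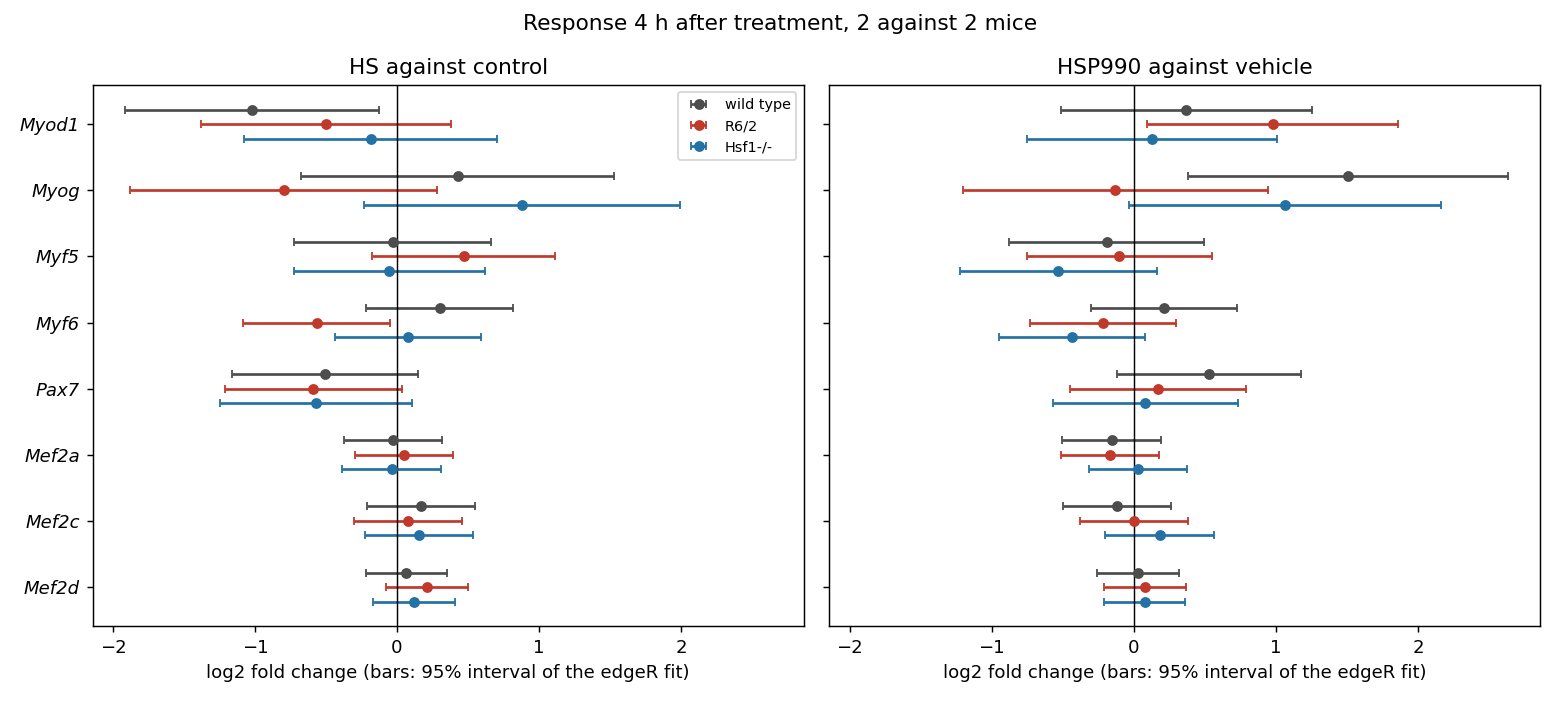
Log2 fold change of each gene 4 h after HS (left, over control) and HSP990 (right, over vehicle), with 95% intervals of the edgeR fit, in wild type (grey), R6/2 (red) and Hsf1-/- mice (blue), 2 against 2 mice. No member was called in these 6 comparisons, and the intervals of the MEF2 factors are the narrowest.

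After HSP990 no member was called either, by edgeR or DESeq2. The share of all genes called was 1.85% in wild type, 1.43% in R6/2 and 0.218% in Hsf1-/- mice, and 1, 1 and 0 members had an unadjusted p below 0.05.

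Myog showed the largest of these differences. It was at 7.28 and 7.02 CPM in wild type vehicle and 19.4 and 21.3 CPM in wild type HSP990 mice, a log2 fold change of 1.51 (95% interval 0.38 to 2.64, edgeR adjusted p = 0.194). The groups did not overlap, but the vehicle mice were also the lowest of all wild type mice, and the wild type control mice of the heat experiment had 8.63 and 12.3 CPM. In Hsf1-/- mice Myog was at 13.7 and 10.9 CPM in vehicle and 34.0 and 17.1 CPM in HSP990 mice, again without overlap (log2 fold change 1.06, edgeR adjusted p = 0.549). In R6/2 mice it was at 26.0 and 7.51 CPM in vehicle and 10.3 and 20.4 CPM in HSP990 mice, which overlapped (-0.13). Markers of other cells were also higher in wild type HSP990 than in wild type vehicle mice: their summed levels were 591 to 678 against 418 to 491 CPM (endothelial), 1334 to 1379 against 825 to 848 CPM (fibroblast) and 82.9 to 116 against 54.3 to 54.9 CPM (macrophage). Of these, 2 of 8 macrophage markers were called (Mrc1 at 1.25 and Lyz2 at 1.07 on the log2 scale), and 0 of 8 in each of the other lists. Their part in the Myog difference was not tested. The wild type value passed only with the 4 libraries fitted alone (edgeR adjusted p = 0.0179, others up to 0.65). Averaged over the genotypes, again a comparison added after the data had been seen, the log2 fold change was 0.81 (95% interval 0.18 to 1.45, edgeR adjusted p = 0.151). In this average 0 members were called (1 unadjusted, and 0 by DESeq2), where 4.65% of all genes were called. Without R6/2 vehicle replicate 1 Myog was called at 1.20 (edgeR adjusted p = 0.0194), and over all mice left out the adjusted p was 0.019 to 0.39. In the same average 1 of 8 endothelial markers was called (Tek at 0.53 on the log2 scale), and in R6/2 mice alone 1 of 8 macrophage markers (Cd163 at -1.63), and their part in these values was not tested.

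Myod1 in R6/2 mice was at 47.5 and 14.1 CPM in vehicle and 50.4 and 71.3 CPM in HSP990 mice, with no overlap (log2 fold change 0.98, 95% interval 0.09 to 1.86, edgeR adjusted p = 0.449). Without vehicle replicate 1, when only the mouse at 14.1 CPM was left, Myod1 was called at 2.11 (edgeR adjusted p = 0.0116). Without vehicle replicate 2 its log2 fold change was 0.36 (edgeR adjusted p = 0.88). In wild type mice Myod1 had 0.37 and in Hsf1-/- mice 0.13. Pax7, at 5.14 and 5.16 CPM in wild type HSP990 mice, was above both vehicle mice of that genotype (log2 fold change 0.53, 95% interval -0.12 to 1.18). Myf5 in Hsf1-/- mice was at 1.55 and 1.58 CPM after HSP990 and at 2.07 and 2.45 CPM after vehicle, the lowest group of the 12 (log2 fold change -0.53, 95% interval -1.23 to 0.16).

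The response to HSP990 did not differ between genotypes in any member by the test. For R6/2 against wild type mice 0 of 8 were called (1 unadjusted, Myog at -1.64 with a 95% interval of -3.19 to -0.09 and edgeR adjusted p = 0.681), where 0% of all genes were called. For Hsf1-/- against wild type mice 0 of 8 were called (0 unadjusted), where 0.422% of all genes were. DESeq2 called 0 members in both.

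The responses to HS and HSP990 were set against each other within each genotype, each relative to its own untreated group. In wild type mice the HS response minus the HSP990 response was -1.39 for Myod1 (95% interval -2.65 to -0.13, edgeR adjusted p = 0.276), -1.08 for Myog (-2.65 to 0.48, edgeR adjusted p = 0.541) and -1.03 for Pax7 (-1.95 to -0.11, edgeR adjusted p = 0.268), all uncalled, as were all 8 members in each genotype by edgeR and DESeq2. In R6/2 mice the value for Myod1 was -1.48 (95% interval -2.73 to -0.23, edgeR adjusted p = 0.333), and it was called without R6/2 vehicle replicate 1 (-2.61, edgeR adjusted p = 0.00846). The unadjusted counts were 2, 1 and 0, and the shares of all genes called were 2.38% in wild type, 1.63% in R6/2 and 0.145% in Hsf1-/- mice. The animals of these experiments differ in sex as well, in wild type and R6/2 mice.

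Other genes of the lists were called after treatment while the members were not. Averaged over genotypes, 3 of 20 MEF2 regulators rose after HS (15.0%, against 6.14% of all genes): the coactivator gene Ppargc1a by 2.07 on the log2 scale (SE 0.234), Sik1 by 1.97 (SE 0.306) and the class IIa deacetylase gene Hdac4, whose product represses MEF2, by 0.48 (SE 0.0991). Of 17 homeobox and related regulators 4 fell after HS, among them Dach1 by 0.95, Six4 by 0.79 and Six5 by 0.70. Of 29 target genes 1 rose after HS, Cdkn1a, by 1.82 (SE 0.324). The inhibitor gene Id3 fell by 0.59 and the Notch target Hes1 rose by 0.58. Sdc4, of the satellite cell list, rose by 0.87 (SE 0.142), where Pax7 had -0.56. After HSP990 the averaged response held 3 called genes of 20 partners and inhibitors (15.0%, against 4.65% of all genes), all higher: Bhlhe41 by 0.78, Mdfic, of the MyoD family inhibitor group, by 0.49 and the E protein gene Tcf3 by 0.48. Cdkn1a fell by 1.19 (SE 0.323) and Musk by 0.63 (SE 0.166) among the 29 targets, while Dach1 rose by 1.00 and Pitx3 fell by 0.74. Each of these had an edgeR adjusted p of at most 0.044.

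Of the bHLH factors, Myod1 and Myog varied widely between mice treated alike. The pooled standard deviation within groups, on log2(CPM + 0.5), was 0.58 for Myog and 0.48 for Myod1, at the 96.5th and 94.4th percentile of 11119 genes with a mean of at least 1 CPM, whose median was 0.20. Pax7 (0.27), Myf6 (0.27) and Myf5 (0.26) lay somewhat above the median, Mef2c (0.19) and Mef2a (0.17) near it, and Mef2d (0.13) at the 21.7th percentile. The widest gap was in R6/2 vehicle mice, where replicate 1 held 3.36 times as much Myod1, 3.47 times as much Myog and 1.73 times as much Myf6 as replicate 2.

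**Figure D5:**
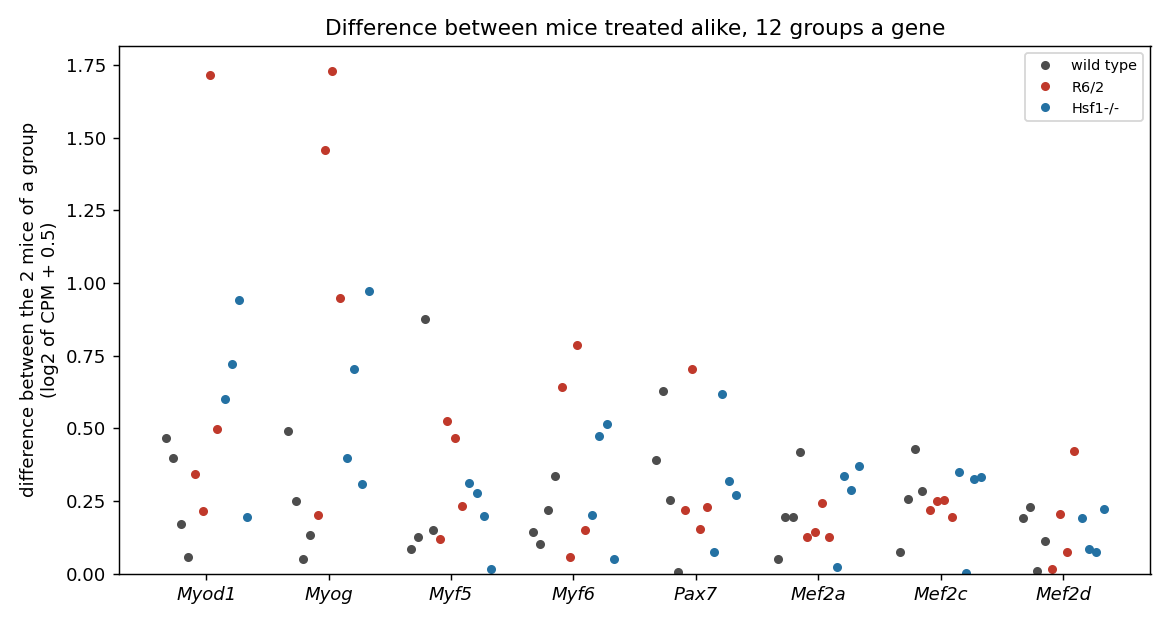
Absolute difference between the 2 mice of a group, on log2(CPM + 0.5), for each of the 8 genes in 12 groups (grey wild type, red R6/2, blue Hsf1-/-). Myod1 and Myog reach the largest differences, both in R6/2 vehicle mice, and Mef2d has the lowest standard deviation pooled over the groups (0.13).

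Within groups the differences of the 4 bHLH factors between the 2 mice were positively correlated. Over the 12 differences between the 2 mice of a group, the uncentred correlation was 0.46 to 0.71 for the 6 pairs of bHLH factors, the highest for Myod1 with Myf6, and the mouse with more of a factor also had more of its partner in 7 to 10 of 12 groups. For Pax7 with the bHLH factors it was 0.33 to 0.53. For the 12 pairs of a bHLH with a MEF2 factor it ran from -0.37 to 0.38, and for the 3 MEF2 pairs from -0.20 to 0.55. These values share libraries and scaling factors and are given as a description. Of 11118 genes, 19.99% were ordered like Myod1 in as many groups as Myog was (8 of 12) or more. The median gene was ordered like Myod1 in 6 of 12 groups. For the correlations no such background over all genes was computed. Large gaps weigh most in them, and they were not computed without the R6/2 vehicle mice, where Myod1 and Myog had their largest gaps.

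Across the 12 group means, the genes most like Pax7 were Scara3, Traf5 and Bcl9 (Pearson r of 0.97, 0.96 and 0.95 on log2 CPM), and those most like Myod1 were Mrgprf, Septin4 and Fam102a (0.93, 0.89 and 0.89). Myog was most like Gas2l1, Foxm1 and Trim35 (0.93, 0.85 and 0.82), Myf5 like Osbpl1a, Gpd1l and Grk4 (0.90, 0.88 and 0.88) and Myf6 like Alpk3, Insr and Tsc1 (0.84, 0.82 and 0.81). Mef2a was most like Zfr, Eya4 and Nsd3 (0.93, 0.91 and 0.91), Mef2c like Slc19a2, Rora and Tma7 (0.92, 0.87 and 0.87) and Mef2d like Carm1, Hes1 and Eif6 (0.93, 0.92 and 0.92). None of the 8 genes was among the 3 nearest of another member. The 12 means share their scaling and are no independent samples.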

How the data were processed

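The authors made strand-specific paired-end libraries, mapped the reads to mm9 with Bowtie (as the study's methods and the submitters' processing notes say) and deposited raw counts per gene without normalization, 1 column per mouse. The counting program and annotation are not given in the sources used here. All 24 columns were used. Symbols were matched for 18594 of 18669 gene numbers, and positions and exon lengths came from GENCODE vM1. The 2 mice of a group differed by more than counting error (chi-square per degree of freedom 19.4 to 110). Counts were fitted with edgeR 4.0.16 (R 4.3.3) as 12 groups with TMM scaling and 12 residual degrees of freedom, and p-values were adjusted over 13754 genes within each of 20 comparisons, 2 of them added after the data had been seen. DESeq2 1.42.0 was an alternative, and the fit was tested on simulated data. Copies were searched with minimap2 2.31-r1302. The genes and lists were chosen with earlier results of these data known. Of other lists, at most the 3 called genes with the largest change and a mean of at least 1 CPM were named per comparison, with exceptions marked.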

Additional observations from a re-analysis of the deposited data

How the results depend on the processing

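Over 8 genes and 20 comparisons, 2368 values under alternative settings were set beside the reported ones: 2165 kept direction and side of the threshold, 12 lost a call, 17 gained one, 2 changed sign and gained a call, and 172 changed sign without a call in either setting. Of these 172, 157 had a reported log2 fold change under 0.2 in size, and the largest was 0.61. With library size alone, 7 members were called for untreated R6/2 against wild type mice, and 1 for the averaged HS response. Of the 7 called for R6/2 against wild type mice, Mef2d (0.41) and Mef2c (0.34) were reversed. With only the groups compared, 1 member was called for R6/2 against wild type mice (Pax7, with Myog lost), where 3919 genes were called. In that setting 1 member was also called for wild type HS, wild type HSP990 and HS against HSP990 in wild type mice. With the control groups or the vehicle groups only, 0 members were called for R6/2 against wild type mice. The shares of all genes called were 12.4% (control groups) and 19.2% (vehicle groups). DESeq2 called 1 in the averaged HS response. Leaving out 1 mouse gave 1 to 2 called members for R6/2 against wild type mice, 0 to 1 for HSP990 in R6/2 mice, for HS against HSP990 in R6/2 mice and for the averaged HS response, and 0 to 2 for the averaged HSP990 response. The shares of all genes called with 1 mouse left out are not given here, and the cause of these changes was not tested.

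The replicate block gave 2 called members for R6/2 against wild type mice (Pax7 and Myog) and changed no other call. Replicate numbers are shared between groups in the labels. The deviations of equal numbers correlated at -0.24 to 0.27 between treated and untreated groups. No background was computed for these correlations, so they cannot decide whether mice of equal number were handled together. Depth limits Myf5 and Pax7 most, at 36 to 239 and 39 to 373 reads per library, and 2 mice per group limit every response.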
